A study of Meleagris gallopavo with 24 samples.

Results

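Xenobiotic and steroid metabolising enzymes were examined in heart and liver of turkeys (Meleagris gallopavo) fed salinomycin (Sal), an ionophore given to poultry against coccidia. The members are the genes whose symbol in the deposited table belongs to the cytochrome P450, cytochrome b5 reductase, alcohol and aldehyde dehydrogenase, aldehyde oxidase, epoxide hydrolase, UGT, sulfotransferase, glutathione transferase or hydroxysteroid dehydrogenase families, together with the aryl hydrocarbon receptor AHR and the P450 genes CYP4F8 (ENSMGAG00000013567) and CYP4V2 (ENSMGAG00000011431). They are 28 of the 11587 genes of the table.

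The Sal-exposed group received Sal in the feed at 21 mg/kg during weeks 12 and 13, an estimated 0.9 mg per kg body weight per day. The control group received the same kind of feed without Sal, and all birds had eaten Sal-free feed until week 12. The birds were female and were sampled in week 13, and poly-A RNA of heart and liver was sequenced from 6 Sal-exposed and 6 control libraries per tissue. The study dissected heart and liver from the same birds. The labels name neither the bird nor the pen behind a library, so p-values measure the spread between libraries, and fits over both tissues treat the libraries as independent.

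These enzymes make fat-soluble compounds easier to excrete. Oxidising enzymes such as P450s, which take electrons from reductases, add or expose a reactive group, and transferases then attach glucuronic acid, sulfate or glutathione. The same families build and break down steroids, bile acids and retinoids. Liver is their main organ, and in turkey the P450s CYP1A5 and CYP3A37 are known for activating the mould toxin aflatoxin. AHR is a ligand-activated transcription factor whose best known targets are genes of the CYP1 family.

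Heart libraries had between 23372118 and 35979378 counts, and the 11 liver libraries that entered the comparisons between 15706646 and 31305782. Liver control 3, with 3729229 counts, was left out for its low depth, so 5 liver controls remained. The share of mitochondrial counts was 48.3% to 86.9% in Sal-exposed hearts and 58.5% to 84.4% in control hearts, and exceeded 80% in 3 heart libraries (Sal 3, Sal 4 and control 2). Genes with at least 1 count numbered 10918 to 11350 in Sal-exposed livers and 9268 to 11055 in control livers. Liver controls 4 and 2 had the fewest, 9268 and 9563, against at least 10304 in the other liver libraries compared. The 10 hepatocyte markers found in the table summed to 187349 to 281077 CPM (counts per M of the library, M standing for mega) in Sal-exposed livers and 205601 to 232372 CPM in control livers, and none of them passed the test for Sal. Liver controls 1 and 5 stood apart by markers of enterocytes, the absorbing cells of the gut. The 11 enterocyte markers summed to 7432 CPM in liver control 1 and 1406 CPM in liver control 5, and to 128 to 260 CPM in the other 9 liver libraries. Of the 10 enterocyte markers tested in liver, 7 passed as lower in the Sal-exposed group and none as higher. Genes that passed in liver are therefore also given without liver controls 1 and 5.

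In liver, Sal was accompanied by higher levels of AHR and of the mitochondrial aldehyde dehydrogenases ALDH5A1 and ALDH6A1, and by lower levels of the P450s CYP4F8, CYP4V2 and CYP20A1 and of the glutathione transferase MGST2. The other 18 members tested did not pass, among them the drug-metabolising CYP1A5, CYP3A37 and CYP2D6. After a filter on low counts 25 of the 28 members were tested, and 3 were not (ALDH1A3, CYP26A1 and HSD17B2). Genes passed at an adjusted p of at most 0.05 (quasi-likelihood F test of edgeR, Benjamini-Hochberg adjustment over all genes tested). Of the 25 members 3 were higher, against 7.36% of all 10269 genes tested, and 4 were lower, against 6.89% of all genes. Among the 4 lower, CYP4F8 and CYP4V2 are members by gene ID. The study had reported both as decreased in turkey liver from the same libraries, so the lower count is not independent of that report. Other P450s that the study names as decreased in turkey liver are not among the members. The study used DESeq2 with a correction for batch effects, and took log2 fold changes of 1 or more into its later steps. When the log2 fold change also had to reach 1 in size, AHR and ALDH5A1 were the 2 higher members left, against 5.27% of all genes. None of the 4 lower members, CYP4F8 and CYP4V2 included, was left, against 317 of all 10269 genes tested. The median log2 fold change was 0.08 over the 25 members and 0.03 over all genes. Scaled by the library total alone, the 3 higher members passed and none of the 4 lower ones did. In whole tissue, fewer cells of a type and less RNA per cell cannot be told apart.

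**Figure D1:**
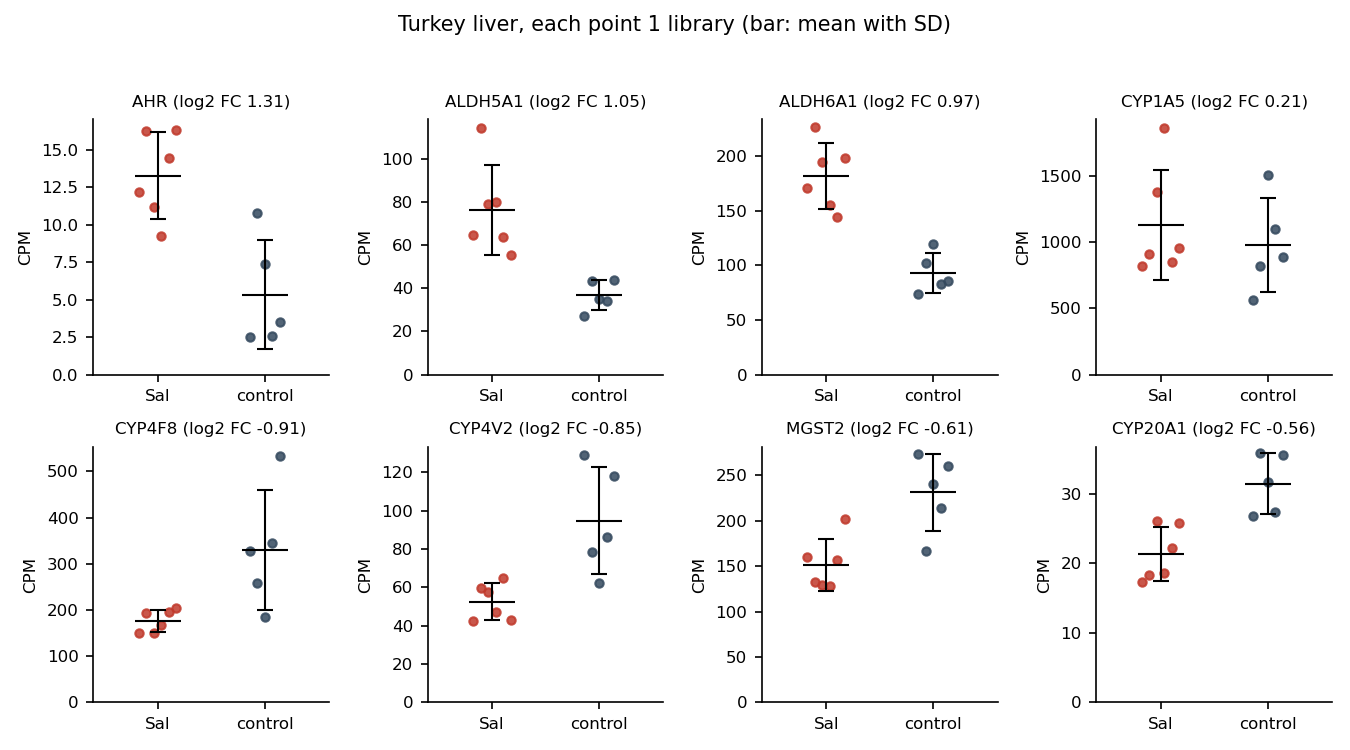
CPM of 8 enzyme genes in each liver library, Sal-exposed (left, 6 libraries) and control (right, 5 libraries), each y axis starting at 0; bars give the mean and SD. AHR, ALDH5A1 and ALDH6A1 were higher and the 4 genes of the lower row were lower in the Sal-exposed group, while CYP1A5 overlapped widely between the groups.

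Among the P450s, 3 of the 9 tested in liver were lower, against 6.89% of all genes, and none was higher, against 7.36%. Of these 3, CYP4F8 and CYP4V2 are the members taken by gene ID. CYP4F8 lies on the unplaced scaffold KN389463.1 of Turkey_5.1, and in human its product oxidises fatty acids and prostaglandins. It had 150, 193, 150, 167, 195 and 203 CPM in Sal-exposed livers 1 to 6, against 328, 259, 185, 346 and 534 CPM in controls 1, 2, 4, 5 and 6. The Sal-exposed libraries lay close together and the controls were spread widely, with only control 4 inside the range of the Sal-exposed group. The log2 fold change was -0.91 (SE 0.24, adjusted p of edgeR 0.0224). Without liver control 5 the adjusted p was 0.0529.

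CYP4V2, whose human counterpart hydroxylates fatty acids at the end of the chain, lies on chromosome 4 from 40741549 to 40753295. It had 42.3, 59.6, 57.7, 47.2, 64.9 and 42.7 CPM in Sal-exposed livers 1 to 6 and 129, 78.4, 62.1, 86.3 and 118 CPM in the controls in the same order as above. The highest values were those of controls 1 and 6, and only control 4 fell within the Sal-exposed range. On the log2 scale its fold change was -0.85 (SE 0.21, adjusted p of edgeR 0.0171).

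CYP20A1 (chromosome 7, 13152537 to 13165837) is an orphan P450 with no settled substrate. It averaged 21.4 ± 3.86 CPM in Sal-exposed livers (SD, n = 6) and 31.4 ± 4.35 CPM in control livers (SD, n = 5), and its ranges did not overlap (highest Sal-exposed value 26.0 CPM, lowest control value 26.7 CPM). Its log2 fold change was -0.56 (SE 0.18) and the adjusted p of edgeR, 0.0492, lay close to the threshold. It exceeded 0.05 when any of Sal 1, 2, 4 or 5 or control 2, 4, 5 or 6 was left out, and was 0.104 at most.

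The other P450s did not pass in liver. CYP3A37, the P450 with the largest number of reads in control liver, had 1741 to 2629 CPM in Sal-exposed livers (median 2077) and 1769, 2177, 1587, 2018 and 2701 CPM in controls 1, 2, 4, 5 and 6. On the log2 scale its fold change was 0.09 (SE 0.22, adjusted p of edgeR 0.816). CYP2D6, whose human counterpart oxidises many drugs, averaged 953 ± 193 CPM in Sal-exposed livers and 1124 ± 123 CPM in control livers, and CYP46A1, a cholesterol hydroxylase, 54.9 ± 3.79 CPM and 74.7 ± 26.5 CPM (SD, n = 6 and 5). Neither difference passed (adjusted p of edgeR 0.448 and 0.167). CYP39A1, which hydroxylates an oxidised form of cholesterol, had a log2 fold change of 0.07.

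CYP7A1 catalyses the rate-limiting step of bile acid synthesis and had the largest standard error of the P450s in liver. It had 170, 318, 206, 56.5, 78.7 and 33.7 CPM in Sal-exposed livers 1 to 6 and 4.17, 75.3, 108, 65.2 and 63.2 CPM in controls 1, 2, 4, 5 and 6. The Sal-exposed libraries fell on both sides of most controls, and control 1 lay far below every other library. The log2 fold change of 1.19 (SE 0.72) did not pass (adjusted p of edgeR 0.298). The gene model overlaps another, and since the use of strand in counting is not given, their reads may not be separable. The same limit holds for the members CYB5RL and GSTZ1, whose models also overlap another.

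AHR (chromosome 6, 27811049 to 27869743) had 12.2, 16.3, 11.2, 9.23, 14.4 and 16.3 CPM in Sal-exposed livers 1 to 6, against 2.51, 10.8, 7.35, 2.58 and 3.49 CPM in controls 1, 2, 4, 5 and 6. Only control 2 reached the Sal-exposed range, whose lowest value was that of Sal 4. Its log2 fold change was 1.31 (SE 0.37, adjusted p of edgeR 0.0297). The adjusted p exceeded 0.05 when Sal 2, Sal 5, Sal 6 or control 1, 5 or 6 was left out, reaching 0.0746 without control 5.

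CYP1A5, the CYP1 family member and a gene on chromosome 12, did not pass in liver, and its relation to AHR was not tested. It had 822 to 1863 CPM in Sal-exposed livers (median 931) and 564, 817, 1509, 1098 and 886 CPM in controls 1, 2, 4, 5 and 6. On the log2 scale its fold change was 0.21 (SE 0.29, adjusted p of edgeR 0.659). Endothelial markers, 4 of the 7 listed being in the table, summed to 61.2 to 102 CPM in Sal-exposed livers and 25.2 to 55.8 CPM in control livers, and 2 of the 4 were higher by the test; their part in the AHR result was not tested. Fibroblast and stellate cell markers had 1 higher of 3 tested and macrophage markers 1 higher of 6.

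Of the alcohol and aldehyde dehydrogenases among the members 4 were tested in liver, and 2 were higher, beside the 7.36% of all genes given above. ALDH5A1 oxidises succinic semialdehyde, a breakdown product of the transmitter GABA, and lies on chromosome 3 from 4638781 to 4645930. It had 64.7, 114, 79.0, 80.1, 63.9 and 55.6 CPM in Sal-exposed livers 1 to 6, against 27.3, 43.6, 35.0, 34.0 and 43.8 CPM in controls 1, 2, 4, 5 and 6. Every Sal-exposed library exceeded every control, and Sal 2 was the highest. The log2 fold change was 1.05 (SE 0.21, adjusted p of edgeR 0.00657).

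ALDH6A1 oxidises methylmalonate semialdehyde in the breakdown of valine and thymine. It lies on chromosome 5 from 36812961 to 36820087 and averaged 182 ± 30.4 CPM in Sal-exposed livers (SD, n = 6) and 92.8 ± 18.2 CPM in control livers (SD, n = 5). The lowest Sal-exposed value was 145 CPM and the highest control value 120 CPM, so the groups did not overlap. Its log2 fold change was 0.97 (SE 0.19, adjusted p of edgeR 0.00609).

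Of the other members of the class, ALDH8A1, which acts on semialdehydes of tryptophan breakdown and on retinal, had 129 ± 50.1 CPM in Sal-exposed livers and 97.4 ± 39.6 CPM in control livers, with a log2 fold change of 0.41 (SE 0.30, adjusted p of edgeR 0.384). ADH5, which clears formaldehyde bound to glutathione, had a log2 fold change of 0.34 (adjusted p of edgeR 0.553), and liver control 6 held 173 CPM against 58.6 to 75.5 CPM in the other controls. ALDH1A3, which makes retinoic acid from retinal, had 4, 2, 4, 4, 10 and 0 counts in Sal-exposed livers 1 to 6 and 0 counts in each of the 5 controls. With both groups around the floor of 3 counts per library, no fold is given.

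MGST2, a membrane-bound glutathione transferase that also conjugates leukotrienes, was the transferase that passed in liver. It averaged 151 ± 28.3 CPM in Sal-exposed livers and 231 ± 42.7 CPM in control livers (SD, n = 6 and 5). On the log2 scale its fold change was -0.61 (SE 0.19, adjusted p of edgeR 0.0442). The ranges overlapped, from 128 to 202 CPM in the Sal-exposed group and from 166 to 274 CPM in the control group. The adjusted p exceeded 0.05 when any 1 library other than Sal 6 and control 2 was left out, and was 0.09 at most.

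GSTO1, which reduces oxidised thiols and ascorbate, had the most negative log2 fold change of the members in liver, -1.35 (SE 0.57), and did not pass (adjusted p of edgeR 0.122). It had 2.92 to 6.57 CPM in Sal-exposed livers and 33.0, 1.66, 5.67, 10.2 and 3.60 CPM in controls 1, 2, 4, 5 and 6. The 2 highest values were those of controls 1 and 5, and without both the log2 fold change was 0.20. Of 22 alternatives GSTO1 passed as lower under 2, without control 2 (adjusted p of edgeR 0.0333) and without controls 2 and 4. GSTZ1, which isomerises an intermediate of tyrosine breakdown, had a log2 fold change of 0.08 (adjusted p of edgeR 0.89).

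The remaining conjugating and hydrolysing enzymes did not pass in liver. UGT8 transfers galactose to ceramide and had 19.6 ± 4.33 CPM in Sal-exposed livers and 27.8 ± 5.59 CPM in control livers, a log2 fold change of -0.50 (SE 0.21, adjusted p of edgeR 0.111). SULT1C3, a sulfotransferase that the RefSeq annotation calls SULT1C4, had 293 ± 69.9 CPM in Sal-exposed livers and 221 ± 66.5 CPM in control livers (adjusted p of edgeR 0.249), and SULT4A1, known from brain, was at 2.01 ± 1.27 and 1.56 ± 0.601 CPM.

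The epoxide hydrolases pointed in opposite directions. EPHX2, the soluble form that opens fatty acid epoxides, had 109 to 209 CPM in Sal-exposed livers (median 187) and 242, 173, 229, 375 and 421 CPM in controls 1, 2, 4, 5 and 6, a log2 fold change of -0.73 (SE 0.25). EPHX1, the microsomal form that acts on foreign epoxides, had 54.1 ± 13.7 CPM in Sal-exposed livers and 36.1 ± 11.0 CPM in control livers, a log2 fold change of 0.58 (SE 0.25). The adjusted p of edgeR was 0.0626 for EPHX2 and 0.127 for EPHX1. Of 22 alternatives EPHX2 passed under 5, among them DESeq2, limma-voom and the fit without liver control 2. EPHX1 passed under 1, DESeq2 with surrogate variables.

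CYB5R4, a reductase of the cytochrome b5 type, had 6.48 to 9.95 CPM in Sal-exposed livers (median 7.71) and 13.9, 5.55, 13.2, 13.2 and 26.7 CPM in controls 1, 2, 4, 5 and 6. All controls but control 2 exceeded the Sal-exposed group, and the log2 fold change was -0.89 (SE 0.30, adjusted p of edgeR 0.0613). Without control 2 the adjusted p was 0.00911. CYB5RL had a log2 fold change of -0.44 (adjusted p of edgeR 0.357). AOX1, the molybdenum enzyme that oxidises aldehydes and nitrogen heterocycles, averaged 108 ± 17.4 CPM in Sal-exposed livers and 82.9 ± 10.6 CPM in control livers (adjusted p of edgeR 0.156).

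Left out together, the 2 controls with enterocyte markers left ALDH6A1 as the only member to pass in liver, with a log2 fold change of 0.80 (adjusted p of edgeR 0.0493). The other 6 kept their direction, with log2 fold changes of 0.88 for ALDH5A1, 0.85 for AHR, -0.91 for CYP4F8, -0.74 for CYP4V2, -0.71 for CYP20A1 and -0.58 for MGST2. Their adjusted p lay between 0.0511 and 0.135 with 3 controls remaining. Without liver controls 2 and 4, the controls with the fewest detected genes, CYP20A1 lost its call. The rest kept theirs, and CYB5R4, EPHX2 and GSTO1 passed as lower. When a single library was left out 3 to 9 members passed, with 4 without Sal 2 or Sal 5 and 3 without control 5. For 3 of the 25 members tested (ALDH5A1, ALDH6A1 and CYP20A1) the Sal-exposed and control ranges were separate, against 10.1% of all genes.

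HSD17B2, which inactivates oestradiol by oxidising it to oestrone, was found in a single library. Liver control 1 had 42 counts (1.55 CPM), and the other 10 liver libraries compared and all 12 heart libraries had 0. In the same library GSTO1 was at 33.0 CPM, against 1.66 to 10.2 CPM in the other 4 controls, CYP2D6 at 1337 CPM, against 1030 to 1111 CPM, and CYP7A1 at 4.17 CPM, against 63.2 to 108 CPM. CYP46A1, CYP4V2 and MGST2 also had their highest liver value there. The enterocyte marker sum of this library was also the highest, and its part in these values was not tested. CYP26A1, which degrades retinoic acid, had at most 3 counts in any liver library compared and 6 in any heart library.

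**Figure D2:**
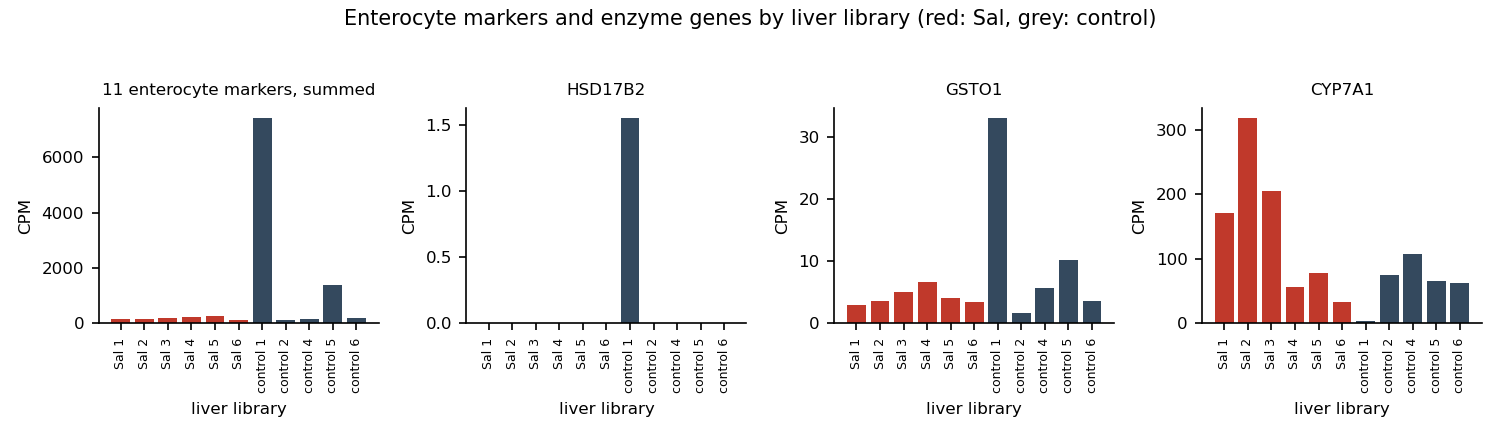
Summed CPM of 11 enterocyte markers and CPM of HSD17B2, GSTO1 and CYP7A1 in the 6 Sal-exposed (left) and 5 control liver libraries, each y axis starting at 0. Control 1 had the highest marker sum, HSD17B2 and GSTO1 levels and the lowest CYP7A1 level, and control 5 was second for the markers and GSTO1.

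In heart, no member passed for Sal. The nearest were AOX1, with lower levels in the Sal-exposed group, and the P450s CYP2D6 and CYP4F8, with higher levels. In heart 21 of the 28 members were tested, and 7 with few counts were not (ALDH8A1, CYP1A5, CYP26A1, CYP7A1, HSD17B2, SULT1C3 and UGT8). None of the 21 passed with edgeR, against 1.01% of all 10265 genes tested. At an unadjusted p under 0.05 the count was 5, against 17.3% of all genes. With DESeq2 it was 2 (AOX1 and CYP2D6), against 4.89% of all genes, with limma-voom and quality weights 3, against 10.2%, and with DESeq2 and surrogate variables 6, against 14.5%. The median log2 fold change was 0.04 over these members and 0.01 over all genes.

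**Figure D3:**
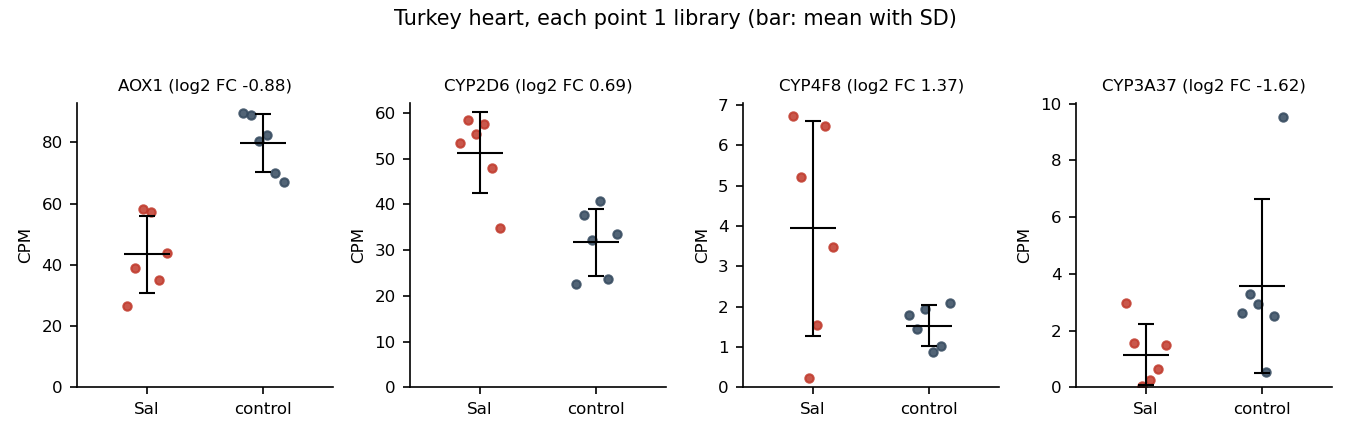
CPM of AOX1, CYP2D6, CYP4F8 and CYP3A37 in each heart library, Sal-exposed (left) and control (right), 6 libraries each, each y axis starting at 0; bars give the mean and SD. AOX1 was at most 58.4 CPM in the Sal-exposed hearts and at least 67.2 CPM in the control hearts, while the other 3 genes overlapped between groups.

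AOX1 had 26.6, 38.9, 58.4, 57.3, 35.2 and 44.0 CPM in Sal-exposed hearts 1 to 6, against 89.6, 89.1, 80.6, 82.3, 70.1 and 67.2 CPM in control hearts 1 to 6. All Sal-exposed hearts were below all control hearts, which held for AOX1 alone among the 21 members, against 2.68% of all genes. Its log2 fold change was -0.88 (SE 0.21, adjusted p of edgeR 0.0584). The highest Sal-exposed values were those of Sal 3 and Sal 4, libraries with over 80% mitochondrial counts. The adjusted p was at most 0.05 without Sal 1, Sal 3 or Sal 4 (0.0374 at the lowest), and 0.0135 without the 3 libraries with over 80% mitochondrial counts, where the log2 fold change was -1.11. Fibroblast markers summed to 108 to 282 CPM in Sal-exposed hearts and 186 to 537 CPM in control hearts. Endothelial markers summed to 32.8 to 161 and 118 to 215 CPM, and macrophage markers to 112 to 499 and 111 to 486 CPM. None of these markers passed in heart, and their part in the AOX1 values was not tested.

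CYP2D6 had 34.8 to 58.5 CPM in Sal-exposed hearts (median 54.5) and 22.5 to 40.7 CPM in control hearts (median 32.9). Of the Sal-exposed hearts only Sal 6 fell within the control range. The log2 fold change was 0.69 (SE 0.20, adjusted p of edgeR 0.113, and 0.0165 with DESeq2).

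CYP4F8, which was lower in Sal-exposed livers, had 6.71, 5.20, 0.243, 1.54, 6.47 and 3.47 CPM in Sal-exposed hearts 1 to 6 and 0.885 to 2.09 CPM in control hearts (median 1.62). The 2 low Sal-exposed values were again those of Sal 3 and Sal 4, and the other 4 exceeded every control. Its log2 fold change of 1.37 (SE 0.53) did not pass (adjusted p of edgeR 0.23). The adjusted p was 0.047 without Sal 3 and 0.0147 without the 3 libraries with over 80% mitochondrial counts. Control 2, the third of these libraries, had 1.45 CPM, within the range of the other controls. Without the 3 libraries edgeR called 346 of all 10436 genes tested, against 104 of 10265 in the main fit.

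The fold changes of the other P450s tested in heart were positive except that of CYP3A37, which was at 0.0485 to 2.97 CPM in Sal-exposed hearts (median 1.06) and 0.526 to 9.54 CPM in control hearts (median 2.78). On the log2 scale its fold change was -1.62 (SE 0.70, adjusted p of edgeR 0.265). Hepatocyte markers summed to 17.6 to 66.4 CPM in Sal-exposed hearts and 33.6 to 77.8 CPM in control hearts, and none passed in heart. Sal 3, 4 and 5 were lowest of their group for both the markers and CYP3A37. Control 4 was lowest and control 6 highest of the controls for both. Sal 1, highest of its group for CYP3A37, had 49.5 CPM of markers. The part of the markers in the CYP3A37 values was not tested. CYP46A1 averaged 26.2 ± 6.22 CPM in Sal-exposed hearts and 19.3 ± 2.37 CPM in control hearts, and CYP4V2 48.9 ± 9.62 and 40 ± 7.51 CPM (SD, n = 6 each). The adjusted p of edgeR was 0.243 for CYP46A1 and 0.41 for CYP4V2.

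AHR, ALDH5A1 and ALDH6A1 did not pass in heart. AHR had 0.178, 2.43, 2.77, 3.08, 2.10 and 2.33 CPM in Sal-exposed hearts 1 to 6 and 2.11 to 5.58 CPM in control hearts, a log2 fold change of -0.63 (SE 0.43, adjusted p of edgeR 0.427). Sal 1 lay far below the rest. ALDH5A1 averaged 16.2 ± 6.16 CPM in Sal-exposed hearts and 21.8 ± 2.31 CPM in control hearts, a log2 fold change of -0.43 (adjusted p of edgeR 0.384), and ALDH6A1 146 ± 28.0 and 145 ± 14.9 CPM, a log2 fold change of 0.01 (adjusted p of edgeR 0.983). The remaining members tested in heart had log2 fold changes between -0.34 for GSTO1 and 0.66 for CYP39A1.

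**Figure D4:**
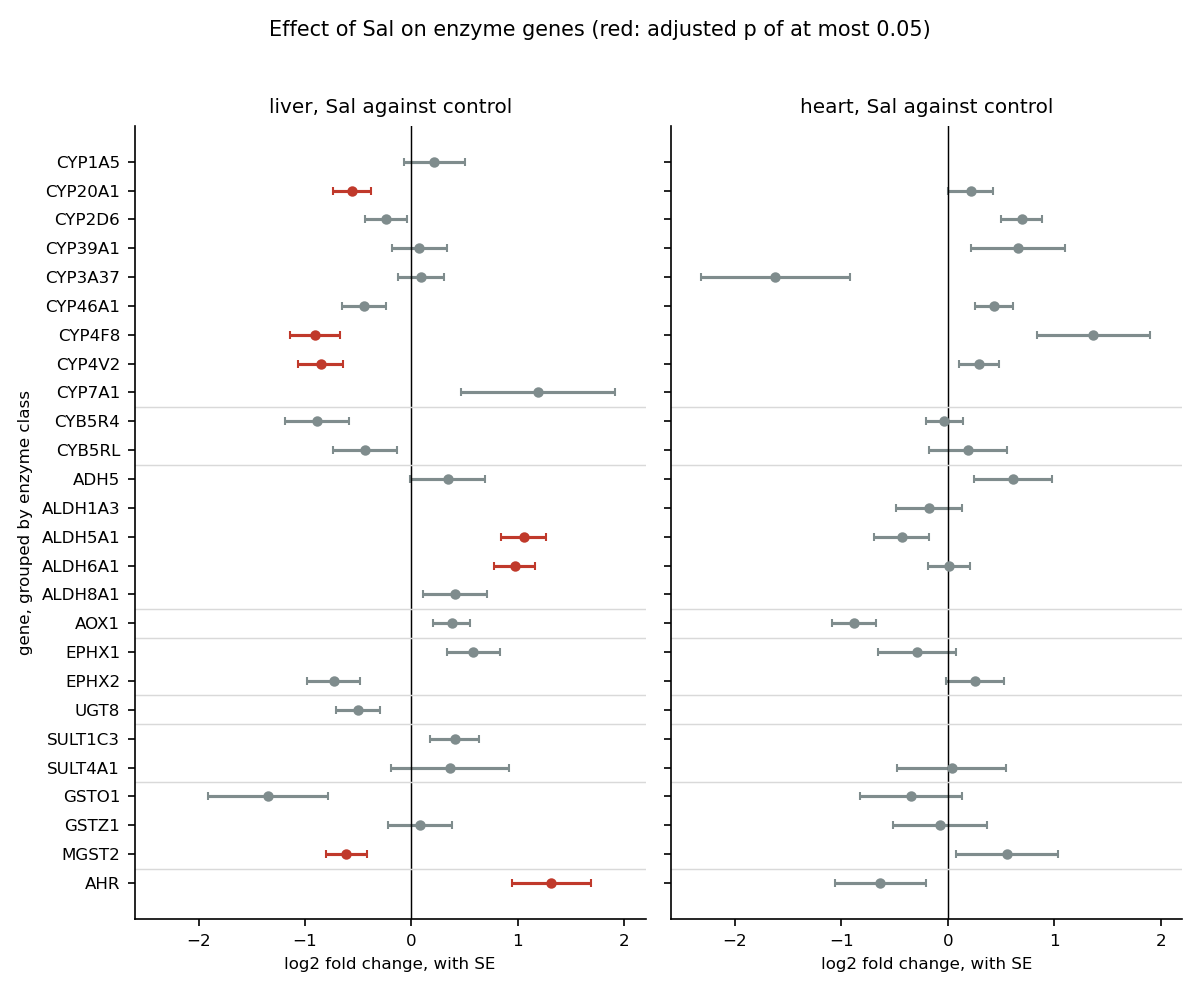
Log2 fold changes with SE of the enzyme genes for Sal against control in liver (left panel, 25 genes) and heart (right panel, 21 genes), ordered by enzyme class; red marks an adjusted p of at most 0.05 and a gap marks a gene that was not tested. In liver 3 genes were higher and 4 lower, and in heart no gene passed.

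Whether the Sal effect differed between liver and heart was tested directly as the tissue by treatment term of a fit over 23 libraries, in which heart and liver of a bird could not be matched. Of 26 members tested 9 passed. For ALDH1A3, ALDH5A1, ALDH6A1, AOX1 and AHR the effect was more positive in liver, 5 members against 10% of all 11158 genes tested, and for CYP4F8, CYP4V2, CYP2D6 and CYP46A1 it was more negative, 4 members against 8.45% of all genes. These counts include ALDH1A3, which had no counts in control livers and entered the fit through heart alone. They also include CYP4F8 and CYP4V2, taken by gene ID. Other P450s had positive differences that did not pass, of 1.78 for CYP7A1, 1.71 for CYP3A37 and 1.42 for CYP1A5 (adjusted p of edgeR 0.344, 0.128 and 0.11). CYP7A1 and CYP1A5 had only 0 to 9 and 1 to 34 counts per heart library and entered the fit through liver alone. Their differences therefore rest on few heart counts. UGT8, ALDH8A1 and SULT1C3, also among the 26 members tested, likewise entered through liver alone. Scaled by the library total alone the split was 5 more positive, ALDH1A3 again among them, and none more negative. Without liver controls 1 and 5 the calls of AHR, ALDH6A1 and CYP2D6 were lost (adjusted p of edgeR 0.0875, 0.0662 and 0.082) and CYP20A1 passed. Without liver controls 2 and 4 the call of CYP2D6 was lost, and CYB5R4 and EPHX2 passed as more negative in liver.

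Apart from ALDH1A3, the largest of the 9 differences that passed was that of CYP4F8, whose log2 fold change was -0.91 in liver and 1.37 in heart, a difference of -2.29 (SE 0.61, adjusted p of edgeR 0.0134). AHR had log2 fold changes of 1.31 in liver and -0.63 in heart, a difference of 1.94 (SE 0.60, adjusted p of edgeR 0.0276, and 0.0515 without liver control 5). ALDH5A1 differed by 1.48 (SE 0.35, adjusted p of edgeR 0.00667).

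AOX1, with log2 fold changes of 0.38 in liver and -0.88 in heart, differed by 1.25 (SE 0.27, adjusted p of edgeR 0.00382) although it passed in neither tissue. CYP4V2 differed by -1.16 (SE 0.29, adjusted p of edgeR 0.00918), ALDH6A1 by 0.95 (SE 0.27), CYP2D6 by -0.94 (SE 0.31) and CYP46A1 by -0.89 (SE 0.28). The last 3 had adjusted p of edgeR of 0.0172, 0.0356 and 0.0294. CYP2D6 lost its call when heart Sal 1, 2, 3 or 4, heart control 1, 2 or 5, liver Sal 2 or 5 or liver control 1 or 4 was left out (adjusted p up to 0.0888), and CYP46A1 without heart Sal 1, heart control 2 or 6 or liver control 1 or 6 (up to 0.0996).

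ALDH1A3 passed with a fitted difference of 5.14 (adjusted p of edgeR 0.00681), but its 5 liver controls had 0 counts and its Sal-exposed livers 0 to 10. The size of that value therefore depends on the prior count of the fit and bounds nothing. In heart the gene had 2.61 to 9.45 CPM in the Sal-exposed group and 4.60 to 8.63 CPM in the control group. Cardiomyocyte markers, 5 of the 11 listed being in the table, summed to 4.05 to 19.3 CPM in Sal-exposed livers and 0 to 3.80 CPM in control livers, and neither of the 2 tested in liver passed. Their part in the ALDH1A3 value was not tested.

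In control birds most of the enzyme genes were higher in liver than in heart. Of 26 members tested 18 were higher in liver by the test and by a log2 fold change of 1 or more, against 19.0% of all 10772 genes tested. Only ALDH1A3 was lower in liver by these criteria, against 25.3% of all genes. ALDH8A1, CYP1A5, CYP7A1, SULT1C3 and UGT8 passed the filter on low counts through liver alone, and ALDH1A3 through heart alone. The direction of these genes was thereby set in advance, and the counts of members include them. The median log2 fold change was 3.0 over the members and -0.21 over all genes. The tissues were homogenised differently, so tissue and extraction cannot be told apart.

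**Figure D5:**
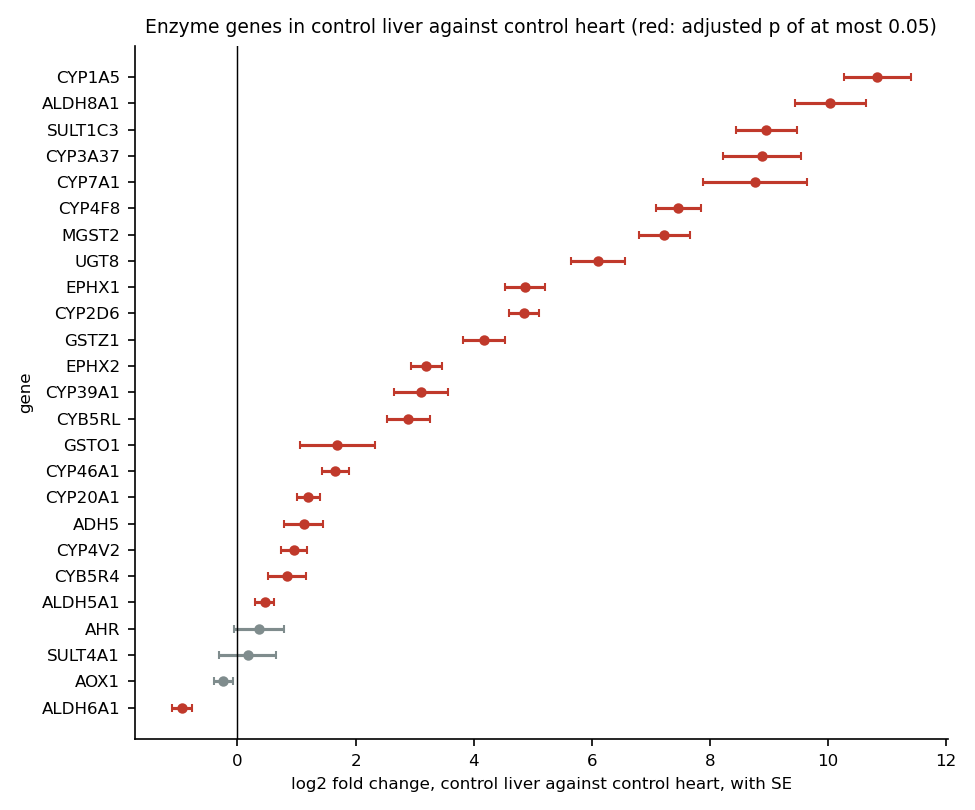
Log2 fold changes with SE of 25 enzyme genes between 5 control livers and 6 control hearts, in order of size; red marks an adjusted p of at most 0.05. ALDH1A3, with no count in control liver, is left out. Values ran from -0.94 for ALDH6A1 to 10.83 for CYP1A5.

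All 9 P450s tested were higher in liver, against 24.4% of all genes at this threshold, and their ranges did not overlap between the tissues, against 42% of all genes. CYP1A5 and CYP7A1 are in this count although the filter kept them through liver alone. CYP1A5 had 930 ± 330 CPM in control livers (SD, n = 5) and 0.504 ± 0.350 CPM in control hearts (SD, n = 6). This was a log2 fold change of 10.83 (SE 0.57). CYP3A37 followed with 1963 ± 432 and 4.17 ± 3.55 CPM (log2 fold change 8.88, SE 0.66), then CYP7A1 (8.76), CYP4F8 (7.47), CYP2D6 (4.85), CYP39A1 (3.10), CYP46A1 (1.66), CYP20A1 (1.20) and CYP4V2 (0.96). CYP3A37 and CYP7A1, neighbours in this order, differed by less than their standard errors.

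Outside the P450s, ALDH8A1 (log2 fold change 10.04), SULT1C3 (8.95), MGST2 (7.23) and UGT8 (6.11) stood highest for liver. Of these, all but MGST2 were kept by the filter through liver alone, which set their direction in advance. ALDH6A1 was lower in liver, with 88.4 ± 15.5 CPM in control livers and 170 ± 15.4 CPM in control hearts (log2 fold change -0.94, SE 0.17, adjusted p of edgeR 0.000424). ALDH1A3 had 0 counts in every control liver and 7.64 ± 1.71 CPM in control hearts, at least 56.7-fold lower in liver against a floor of 3 counts per library.

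AOX1, AHR and SULT4A1 did not pass between tissues (log2 fold changes -0.24, 0.37 and 0.17). The calls of ALDH5A1 (0.46), CYB5R4 (0.84) and GSTO1 (1.69) were the least secure. Leaving out single libraries ended that of ALDH5A1 (heart control 2, 4 or 5, liver control 2 or 6), that of CYB5R4 (heart control 1, 3, 4 or 5, liver control 1, 5 or 6) and that of GSTO1 (heart control 1, 2, 4 or 5, liver control 1 or 5). Without liver controls 1 and 5 the log2 fold change of GSTO1 was 0.09.

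Further genes of the same families, 15 in all, carry no symbol in the deposited table and were named only through RefSeq genes at the same place. In liver 3 of them were higher, beside 7.36% of all genes, and none lower, beside 6.89%. AKR1D1, the reductase that sets the ring shape of bile acids and steroid hormones, averaged 221 ± 87.8 CPM in Sal-exposed livers and 90.2 ± 18.7 CPM in control livers (log2 fold change 1.29, adjusted p of edgeR 0.00764). ALDH1A2, which makes retinoic acid, had a log2 fold change of 1.27 (adjusted p of edgeR 0.0479), and ALDH9A1, which acts on amino aldehydes, 0.86 (adjusted p of edgeR 0.0454). ALDH7A1, a dehydrogenase of lysine breakdown, had a log2 fold change of -0.47 and did not pass (adjusted p of edgeR 0.16). The glutathione transferases GSTA2, GSTA3, GSTK1, MGST1 and MGST3 and the P450 CYP3A80 did not pass. The median over the 15 was 0.34 in liver and -0.06 in heart, where none passed with edgeR and 3 had an unadjusted p under 0.05, against 17.3% of all genes. Without liver controls 1 and 5 none of the 3 passed, with log2 fold changes of 1.10 for AKR1D1, 1.39 for ALDH1A2 and 0.69 for ALDH9A1 (adjusted p of edgeR 0.0582, 0.0918 and 0.209).

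Genes that serve these enzymes were read from 5 lists, whose counts in liver stand beside the same 7.36% of all genes higher and 6.89% lower. Of the list of cofactor supply and glutathione 9 of 13 genes were in the table, and in liver 2 were higher and 1 lower. UGDH and UGP2, which make the glucuronic acid donor of the UGTs, averaged 83.0 ± 19.0 and 228 ± 67.5 CPM in Sal-exposed livers and 40 ± 11.9 and 106 ± 24.2 CPM in control livers, with log2 fold changes of 1.05 and 1.11 (adjusted p of edgeR 0.00908 and 0.00803). NQO1, a quinone reductase, was lower, with 69.7 ± 12.6 CPM in Sal-exposed livers and 161 ± 29.5 CPM in control livers (log2 fold change -1.21, adjusted p of edgeR 0.00153). The glutathione synthesis genes GCLC, GCLM and GSS and the glutathione reductase GSR did not pass, and the median of the list was 0.29 in liver.

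Among the transcription factors of enzyme genes 9 of the 10 in the table were tested in liver. ESR1, the oestrogen receptor, and HNF4A, a regulator of hepatocyte genes, were higher (log2 fold changes 2.38 and 0.84, adjusted p of edgeR 0.00663 and 0.0316). RXRA, the partner of many nuclear receptors, was lower (log2 fold change -0.59, adjusted p of edgeR 0.0377). ARNT, the partner of AHR, had a log2 fold change of 0.02 in liver, and NFE2L2, a regulator of glutathione genes, -0.02.

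Of the 8 drug and bile acid transporters tested in liver, ABCC1, an exporter of glutathione conjugates, was higher, with 6.27 ± 1.76 CPM in Sal-exposed livers and 2.34 ± 0.973 CPM in control livers (log2 fold change 1.42, adjusted p of edgeR 0.0134). Of the other bile acid and steroid steps 11 genes were tested in each tissue. ACOX2, which shortens the side chain of bile acids, was higher in liver (log2 fold change 0.74, adjusted p of edgeR 0.0374), and LSS, a cholesterol synthesis enzyme, was lower in heart (log2 fold change -1.35, adjusted p of edgeR 0.0391). None of the 10 genes of haem synthesis and breakdown, which supply and degrade the prosthetic group of P450s, passed in either tissue with edgeR, and at an unadjusted p under 0.05 the count was 3 in liver, against 30.1% of all genes, and 1 in heart, against 17.3%. The 3 other lists had no gene past the test of edgeR in heart, where 1 of their genes, a transporter, had an unadjusted p under 0.05.

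Of the 11 genes of the lists and of the RefSeq-named families that passed in liver, NQO1 (log2 fold change -1.09), ESR1 (2.16) and HNF4A (1.14) also passed without liver controls 1 and 5 (adjusted p of edgeR 0.0144, 0.04 and 0.0203). UGP2, UGDH, ABCC1, RXRA and ACOX2 did not, with log2 fold changes of 0.94, 0.94, 1.30, -0.64 and 0.56 (adjusted p of edgeR 0.0623, 0.0599, 0.061, 0.0662 and 0.2). Without liver controls 2 and 4 instead, the calls of HNF4A and ALDH9A1 were lost. The calls of ALDH9A1, ALDH1A2, HNF4A, RXRA and ACOX2 in liver and of LSS in heart also ended when any of several single libraries was left out.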

How the data were processed

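Turkey RNA-seq counts of 24 libraries were analysed. The authors trimmed reads with fastp, aligned them with STAR and deposited RSEM expected counts (estimated counts per gene) on Turkey_5.1 with Ensembl gene models; the deposited values were whole numbers. Tool versions, strand use and the filter behind the 11587 genes: not given in the sources used here. Of 36 library columns 12 matched no sample and were not used. The deposited DESeq2 tables of fold changes and p-values served only for gene names and positions.

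For each comparison edgeR 4.0.16 (R 4.3.3) ran its quasi-likelihood F test, with TMM scaling, the filterByExpr filter and a robust dispersion fit. The prior count of the fit was the default of edgeR, and a prior count of 2 served only the log values of the pairing check. Adjusted p were two-sided, by Benjamini-Hochberg over all genes tested. The threshold was an adjusted p of 0.05, as in the study. SE was derived from the F statistic. CPM is the count per M (mega) counts of the TMM-scaled library size within a fit, and marker sums use the library total. Fits were tested on simulated data. Alternatives were DESeq2 1.42.0, sva 3.50.0, limma 3.58.1, other scalings and filters, libraries left out and a replicate block. CPM was not compared between genes, since transcript lengths were not used here.

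Members and lists were chosen with earlier results of these data known. Genes named are those past the threshold (every library's value with a log2 fold change of at least 1), CYP4F8, CYP4V2, AHR, the member of each class with most reads in control liver and the 3 lowest p in heart; further members are named by class and with values where a library stood apart. A total of 4985 genes (43.0%) had a deposited symbol and 3477 only a RefSeq name. Totals are given in the report, and depth bounds only counting error.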

Additional observations from a re-analysis of the deposited data

Results flagged for a closer look

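Single libraries stood far from the rest of their group for 14 of the 92 groups of values examined (1 gene in 1 group), and chance flags about 1 group in 20. In Sal-exposed hearts, library 1 was high for CYP20A1 (19.9 CPM, others up to 13.7), CYB5RL (3.51 CPM, others up to 1.42), GSTZ1 (8.14 CPM, others up to 3.30) and MGST2 (5.05 CPM, others up to 1.70), and low for AHR (0.178 CPM, others from 2.10). It also had the lowest mitochondrial share of the heart libraries (48.3%). Its cardiomyocyte markers summed to 31102 CPM, against at most 13789 CPM in the other heart libraries. Endothelial markers summed to 32.8 CPM in it, against at least 80.8 CPM in the others. The part of these traits in the flagged values was not tested. CYB5R4 was low in heart Sal 5 (5.07 CPM) and high in heart control 2 (9.29 CPM), and CYP3A37 was high in heart control 6 (9.54 CPM, others up to 3.28).

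In control livers, library 1 was high for GSTO1 (33.0 CPM, others up to 10.2) and CYP2D6 (1337 CPM, others up to 1111), library 6 for ADH5 (173 CPM, others up to 75.5) and CYB5RL (23.1 CPM, others up to 11.2), library 4 for GSTZ1 (135 CPM, others up to 64.2) and library 2 for SULT4A1 (2.61 CPM, others up to 1.44).

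The Sal effect differed between liver and heart for 9 genes by the tissue by treatment term. The difference in log2 fold change, liver minus heart, was 5.14 for ALDH1A3 (with 0 counts in control livers), 1.94 for AHR, 1.48 for ALDH5A1, 1.25 for AOX1, 0.95 for ALDH6A1, -0.89 for CYP46A1, -0.94 for CYP2D6, -1.16 for CYP4V2 and -2.29 for CYP4F8.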

How the results depend on the processing

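The count of enzyme genes past the threshold depended on the tool and on the libraries. In heart, where edgeR called 0, DESeq2 called 2, DESeq2 with surrogate variables 6, limma-voom 3 and edgeR without the 3 libraries of over 80% mitochondrial counts 2, and leaving out single libraries gave 0 to 2. Over all genes DESeq2 called 501 of 10236, DESeq2 with surrogate variables 1462 of 10066 and limma-voom 1043 of 10265. Without those 3 libraries edgeR called 346 of 10436, and leaving out single libraries gave 53 to 160. In liver, where 7 were called, library totals alone gave 3, DESeq2 with surrogate variables 12, limma-voom 11, the fit with liver control 3 included 2, the fit without liver controls 1 and 5 1 and the added fold criterion 2, and leaving out single libraries gave 3 to 9. Over all 10269 genes the main fit called 1464, or 858 with the fold criterion. Library totals alone called 823 of them, DESeq2 with surrogate variables 4743 and limma-voom 2516. The fit with liver control 3 included called 324 of 10058 genes, and the fit without liver controls 1 and 5 called 713 of 10552. Without liver controls 2 and 4 it was 2543 of 10623. Leaving out single libraries gave 739 to 2079 over all genes. For the difference between tissues, with 9 called, library totals alone gave 5, DESeq2 with surrogate variables 17 and the fit with liver control 3 included 5, and leaving out single libraries gave 7 to 11. Over all 11158 genes the main fit called 2060, library totals alone 1403 and DESeq2 with surrogate variables 4905. The fit with liver control 3 included called 1161 of 11105 genes, and leaving out single libraries gave 1568 to 2563. Between control liver and control heart, 23 were called and 20 to 23 when single libraries were left out. The libraries set aside for mitochondrial share, enterocyte markers or few detected genes were chosen after the data had been seen. Over all genes, calls numbered 104 in heart (30 to 1462 under the alternatives), 1464 in liver (324 to 4743) and 2060 for the difference (1070 to 4905). Between control liver and control heart they numbered 5814 of 10772 genes (4192 to 8017 under the alternatives).

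No call of the 28 enzyme genes for Sal or for the difference, and none of the 12 further list and RefSeq-named genes called for Sal, changed direction under any alternative. ALDH5A1 and ALDH6A1 in liver passed under all alternatives apart from ALDH5A1 without liver controls 1 and 5 (adjusted p of edgeR 0.0511). CYP4F8 and CYP4V2 lost their liver calls with library totals alone, with liver control 3 included, with the replicate block and without liver controls 1 and 5. Library totals alone moved the median log2 fold change of all genes to -0.39 in heart, 0.16 in liver and 0.61 for the difference, against 0.01, 0.03 and 0.07 with TMM. The cause of these differences was not tested.

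The check did not show that library numbers pair the samples. Same-numbered heart and liver libraries correlated between -0.39 and 0.19, and 2 of 11 correlated best with their own number. Within a tissue the replicate block joined Sal-exposed and control libraries of the same number, which come from different birds. Such libraries correlated between -0.46 and 0.16 in heart and between -0.14 and 0.08 in liver. With the replicate block the counts were 0 in heart, 3 in liver, 4 for the difference and 20 between tissues. Over all genes they were 30, 716, 1070 and 5075 in the same order. Depth limits HSD17B2, CYP26A1 and, in liver, ALDH1A3, which had few or no counts.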
